A study of Mus musculus with 6 samples.

Results

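The mitochondrial ribosomal protein genes are the nuclear genes whose mouse symbols begin with Mrpl or Mrps and a digit. Of the 84 such symbols in the mouse RefSeq gene table used for names, 76 had a probe set on the arrays, among 19932 genes in all. Of the symbols without one, 6 are pseudogenes, and Mrpl23 and Mrps36 were not analysed here. Where a gene had more than 1 probe set, which held for 6 of the 76, the one with the highest mean over the 6 arrays stood for it. Expression was measured with whole-transcript Affymetrix arrays in chondrocytes, the cells that build cartilage. The nasal group held 3 samples of nasal septum chondrocytes at embryonic day 17.5, and the rib group 3 samples of rib chondrocytes at postnatal day 1. All were from untreated wild-type mice of the outbred ICR stock, and the labels call the samples of a group biological replicates. Whether tissue of several animals was pooled is not given in the sources used here. The wider study concerns how Sox9 controls chondrocyte genes, and these arrays compare transcript levels in both cartilages. Site and age differ together, so their parts in a difference cannot be told apart.

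Mitochondria keep a small genome of their own, and its protein-coding genes all specify subunits of the respiratory chain and ATP synthase. These proteins are made inside the organelle on a ribosome of bacterial ancestry, the mitoribosome. Its RNA comes from the mitochondrial genome, but its proteins are encoded in the nucleus, made in the cytosol and imported, so nuclear and mitochondrial output must be matched. The large subunit joins amino acids and feeds the new chain to the inner membrane, and the small subunit reads the messenger RNA. Some of these proteins have a counterpart in bacteria and others exist only in mitochondria. In cartilage, which is poorly supplied with oxygen, chondrocytes rely strongly on glycolysis.

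The values are linear array intensities, compared after log2, and each difference is nasal minus rib, with a positive value higher in nasal. SE is the standard error from limma, a linear model fitted across all genes. A gene is called where its limma p, adjusted over all genes by the Benjamini-Hochberg method, lies under 0.05. The genes were chosen by symbol, but as a group they were selected on their nasal minus rib log2 differences, which had been seen against genes of like brightness. Their differences and calls are therefore a description and support nothing by themselves. In bulk samples, fewer cells of a type and less RNA per cell cannot be told apart.

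Array medians, over all 28451 probe sets, ran between 216 and 261 in nasal and between 209 and 234 in rib. Nasal replicate 1 stood apart, with dim genes brighter than on the others, and the median difference of all genes was 0.11 with it and 0.03 without it. The cartilage markers Col2a1, Acan, Sox9, Col9a1, Col11a2, Matn3, Hapln1, Cnmd and Snorc were bright in both groups, with summed intensities of 83470 to 85330 in nasal and 77960 to 84850 in rib. Of these 9, Sox9 was called higher in rib (-0.28, SE 0.09) and 0 were called higher in nasal. The groups did not overlap for 3 that were higher in nasal and 3 that were higher in rib. No measured marker of any other cell type was listed at 0. Without detection calls, signal over background is unknown, so this does not show that such cells were present. Summed over 12 skeletal muscle markers, intensity was 1956 to 2559 in nasal and 2549 to 3064 in rib, with Tnnt3 (-1.24, SE 0.13) and Acta1 (-0.58, SE 0.15) called higher in rib and 10 not called. Sums over 6 endothelial markers were 904 to 1337 in nasal and 626 to 746 in rib, and over 10 epithelial markers 1970 to 2770 in nasal and 1891 to 2140 in rib. Genes that respond to tissue handling (8 of the immediate early and heat shock classes) summed to 39190 to 45250 in nasal and 28230 to 35520 in rib. Of these 8, 4 were called higher in nasal (Fos, Jun, Atf3 and Hspa1a) and 1 higher in rib (Dusp1). Sums over 6 osteoblast markers were 2570 to 2911 in nasal and 1440 to 1690 in rib (3 called higher in nasal). Ibsp carried most of this difference, at 1362, 1061 and 1228 in nasal and 211, 304 and 398 in rib. Phex and Alpl were also called, and Bglap, Sp7 and Dmp1 were not called. Sums over 6 adipocyte markers were 1958 to 2332 in nasal and 775 to 911 in rib (2 called higher in nasal). Of these 6, Fabp4 carried most of the difference in sum, at 1226, 1614 and 1785 in nasal and 368, 326 and 343 in rib, Ucp1 was also called, and Adipoq, Plin1, Cidec and Lep were not called. Fibroblast and perichondrium markers (7) summed to 20530 to 21710 in nasal and 20670 to 26500 in rib, with 3 called higher in rib. Erythroid (5) and macrophage (8) sums overlapped between the groups, at 1665 to 7152 and 1528 to 1963 in nasal and 2714 to 6721 and 1632 to 1741 in rib. The 7 proliferation markers summed to 5001 to 5335 in nasal and 4554 to 4771 in rib. The part of these differences in the results below was not tested.

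Most mitochondrial ribosomal protein genes had lower intensity in nasal septum than in rib chondrocytes, by small amounts. The median of the 76 differences was -0.25 on the log2 scale, which is 1.19-fold higher in rib, with a range of -1.06 to 0.70. Over all genes the median was 0.11. The difference was below 0 for 59 of the 76 genes, against 38.2% of all genes. limma called 2 of the 76 higher in nasal, where it called 13.8% of all genes, and 27 higher in rib, where it called 14.7% (28.5% in either direction). After quantile normalization 6 were called higher in nasal and 23 higher in rib, against 3253 and 3631 of all 19932 genes (34.5% in either direction). After cyclic loess 6 were called higher in nasal and 24 higher in rib, against 3468 and 3500 of all genes (35% in either direction). Nasal and rib values were fully apart for 6 genes higher in nasal, against 24.0% of all genes, and for 44 higher in rib, against 21.7% (45.7% in either direction). For the other 26 genes they overlapped. The called rib differences were 1.27-fold to 2.09-fold, and 75 of the 76 genes differed by less than 2-fold. Standard errors ran from 0.08 to 0.28 with a median of 0.11, and the smallest called difference towards rib was -0.34.

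**Figure D1:**
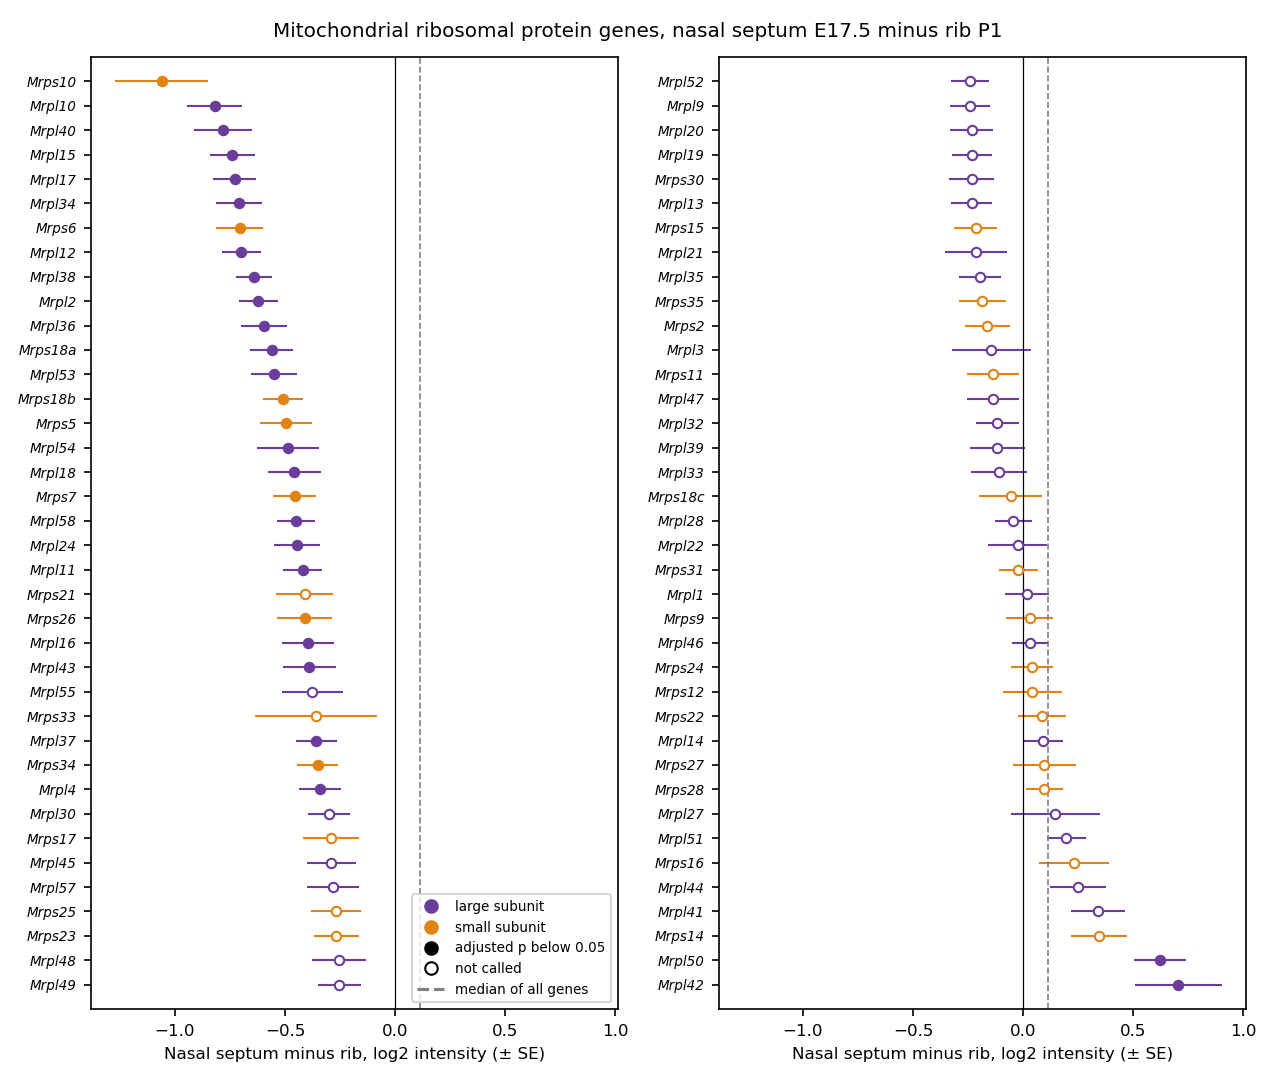
The nasal minus rib log2 difference (x axis) of each of the 76 genes, with its SE as a bar, purple for the large and orange for the small subunit. Filled points are called (2 above 0 and 27 below 0) and open points are not, and the dashed line is the median of all genes, 0.11.

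Taken array by array, each gene was set to a mean of 0 over the 6 arrays and the median over the 76 genes was read. It was -0.10, -0.14 and -0.15 on nasal arrays 1, 2 and 3, and 0.12, 0.14 and 0.12 on rib arrays 1, 2 and 3. All nasal arrays thus lay under all rib arrays, and the arrays of a group lay close together. The median of all genes ran otherwise, at 0.19, -0.01 and -0.06 on the nasal arrays and -0.04, -0.11 and 0.04 on the rib arrays. Without nasal replicate 1 the median difference of the 76 genes was -0.27, and 1 was called higher in nasal and 27 higher in rib. Over all 19932 genes, 2596 were then called higher in nasal and 3168 higher in rib.

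**Figure D2:**
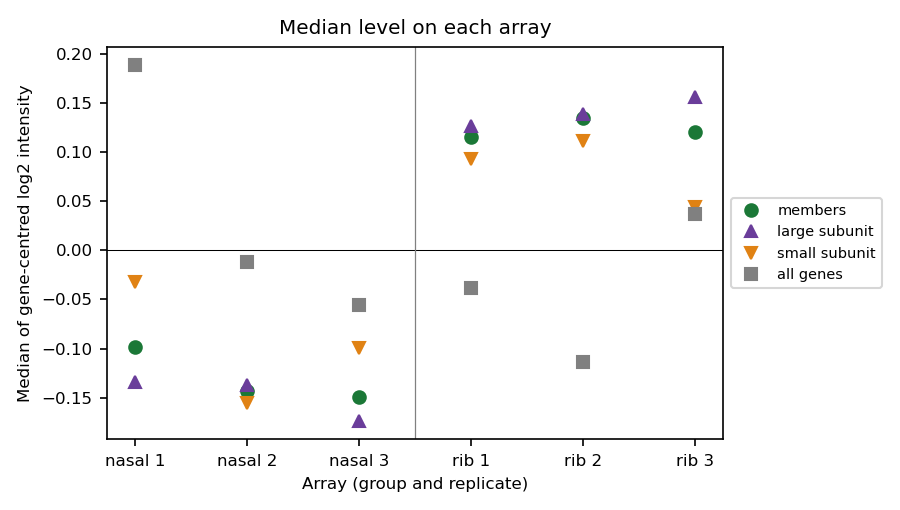
The median gene-centred log2 intensity on each array (y axis) for the 76 genes, the large-subunit genes, the small-subunit genes and all genes. The nasal arrays (left) sit at -0.10 to -0.15 for the 76 genes and the rib arrays (right) at 0.12 to 0.14, while all genes show no such order.

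Differences varied with brightness on these arrays. When all genes were ordered by mean level and divided into 20 equal bins, the median difference of the other genes was highest in bin 3 of the dim end (0.27) and lowest in bin 15 (-0.17). Of the 76 genes, 65 lay above the median level of all genes. Set against the other genes of its own bin, the median mitochondrial ribosomal protein gene lay 0.17 lower (-0.17), and 58 of the 76 lay under their bin's median. The difference was below 0 for 77.6% of the 76 genes and for 56.0% of the other genes of their bins. Called higher in nasal were 2.63% of the 76 and 15.4% of those others, and called higher in rib 35.5% of the 76 and 26.4% of the others. Groups were fully apart and higher in rib for 57.9% of the 76 and 37.6% of the others. They were apart and higher in nasal for 7.9% of the 76 and 23.6% of the others. Mrps33 and Mrpl27 lay under the 25th percentile of all genes, with intensities of 26.4 to 67.8 over all arrays. Their errors were among the widest of the 76 (SE 0.28 for Mrps33 and 0.20 for Mrpl27), and their nasal and rib values overlapped.

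**Figure D3:**
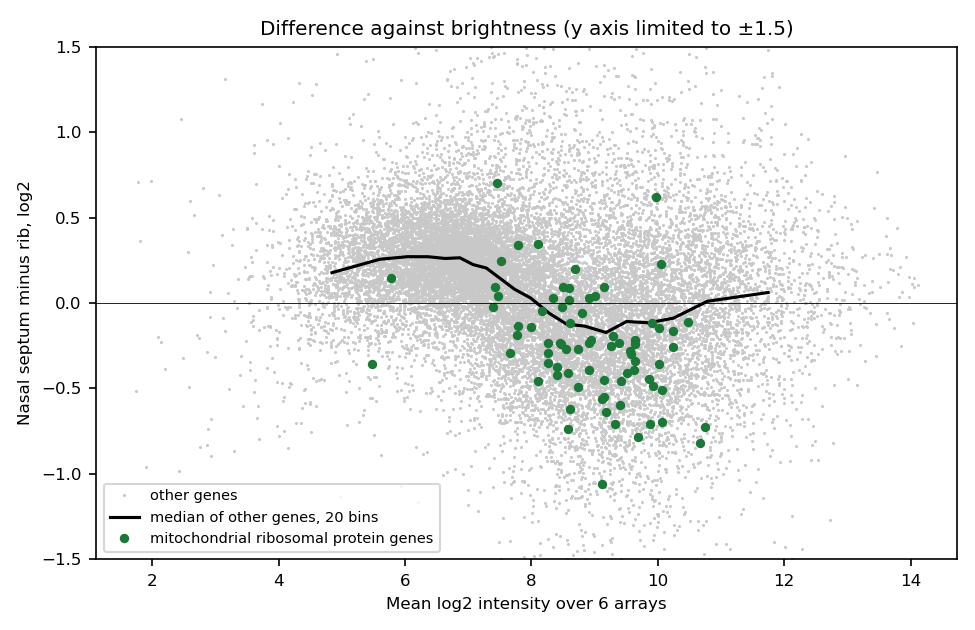
The nasal minus rib log2 difference (y axis, limited to ±1.5) against the mean log2 intensity over 6 arrays (x axis), with the 76 genes in green, other genes in grey and the bin medians of the other genes as a line. The line is highest among dim genes (0.27) and lowest in bin 15 (-0.17), and 58 of the 76 green points lie under their bin's value.

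The widest difference was that of Mrps10, a protein of the head of the small subunit. It had intensities of 369, 385 and 395 on the nasal arrays and 560.3, 958 and 949.8 on the rib arrays. The groups did not overlap, but rib replicate 1 lay well under the other rib arrays, and the difference, 2.09-fold higher in rib, had a wide error (-1.06, SE 0.21). Its transcripts had 3 probe sets, of which 2 held identical values and the third gave -0.91.

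The stalk of the large subunit recruits translation factors, and its genes were lower in nasal. Mrpl10, the base of the stalk, had 1041, 1414 and 1227 on the nasal arrays and 2161, 2197 and 2093 on the rib arrays (-0.82, SE 0.13). Mrpl12, the stalk's repeated arm, had 854, 821 and 844 on the nasal arrays and 1283, 1442 and 1371 on the rib arrays (-0.70, SE 0.09). Mrpl53, a mitochondria-specific neighbour of the stalk, had 519, 435 and 463 on the nasal arrays and 719, 717 and 636 on the rib arrays (-0.55, SE 0.11). In none of the 3 did the groups overlap, and the range within each group was narrower than the gap between them.

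The central protuberance, the crest of the large subunit, holds proteins found only in mitochondria. Mrpl40 had 549, 713 and 634 on the nasal arrays and 959, 1171 and 1125 on the rib arrays (-0.78, SE 0.13). Mrpl38 had 461, 479 and 456 on the nasal arrays and 726, 718 and 732 on the rib arrays (-0.64, SE 0.08), and its SE was the smallest of all 76 genes. The groups were apart for both. Mrpl46 and Mrpl48, also of the protuberance, were not called (0.03, SE 0.08 and -0.26, SE 0.12), so its genes did not share one value. The other probe set of Mrpl48 gave -0.07.

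Several proteins with bacterial counterparts that fold the large-subunit RNA were also lower in nasal. Mrpl15 had 272, 329.6 and 287 on the nasal arrays and 504, 494 and 483 on the rib arrays (-0.74, SE 0.10), and its other probe sets gave -0.82 and -0.93. Mrpl17 had 1379, 1265 and 1349 on the nasal arrays and 2149.9, 2408 and 2065 on the rib arrays (-0.73, SE 0.10). Every rib value of both genes lay above every nasal value. Mrpl34 had 505, 451 and 556 on the nasal arrays and 812, 809 and 841 on the rib arrays (-0.71, SE 0.10). Mrpl2, which lies near the site where peptide bonds form, had 312, 336 and 295 on the nasal arrays and 475, 478 and 493 on the rib arrays (-0.62, SE 0.09). Both were called, with no overlap.

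In the small subunit, Mrps6 had 652, 755 and 798 on the nasal arrays and 1213, 1137 and 1238 on the rib arrays (-0.71, SE 0.11). Its gene span overlaps that of Slc5a3, the inositol transporter gene, which gave -0.67 (SE 0.12). Whether the probe sets tell both transcripts apart was not tested. Spans of 20 of the 76 genes overlap another measured gene, and no member had values identical to those of another gene.

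Of the genes higher in nasal, Mrpl50 and Mrpl42, both mitochondria-specific proteins of the large subunit, were called. Mrpl50 had 1162, 1358 and 1217 on the nasal arrays and 842, 882 and 712 on the rib arrays (0.62, SE 0.12), with all nasal values above all rib values. Mrpl42 had 266, 251 and 166 on the nasal arrays and 153, 118 and 142 on the rib arrays (0.70, SE 0.20). Nasal replicate 3 lay close to the rib arrays there, and the call was lost in 5 of the 6 fits that left out 1 sample, all but the one without nasal replicate 3 (0.58 to 0.78 in those 5). Mrpl50 kept its call in all 6.

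A further 4 genes lay higher in nasal with no overlap but were not called. Mrps14 had 359, 309 and 264 on the nasal arrays and 234, 250.05 and 245 on the rib arrays (0.34, SE 0.13). Mrpl41 had 276, 234 and 239.8 on the nasal arrays and 208, 171 and 215 on the rib arrays (0.34, SE 0.12). In both the gap between the groups was narrower than the spread of the nasal arrays. Mrpl51 had 471, 434 and 417 on the nasal arrays and 383, 398 and 372 on the rib arrays (0.20, SE 0.09). Mrps28, the counterpart of bacterial protein S1, had 620.4, 571 and 574 on the nasal arrays and 542, 542 and 565 on the rib arrays (0.10, SE 0.09).

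**Figure D4:**
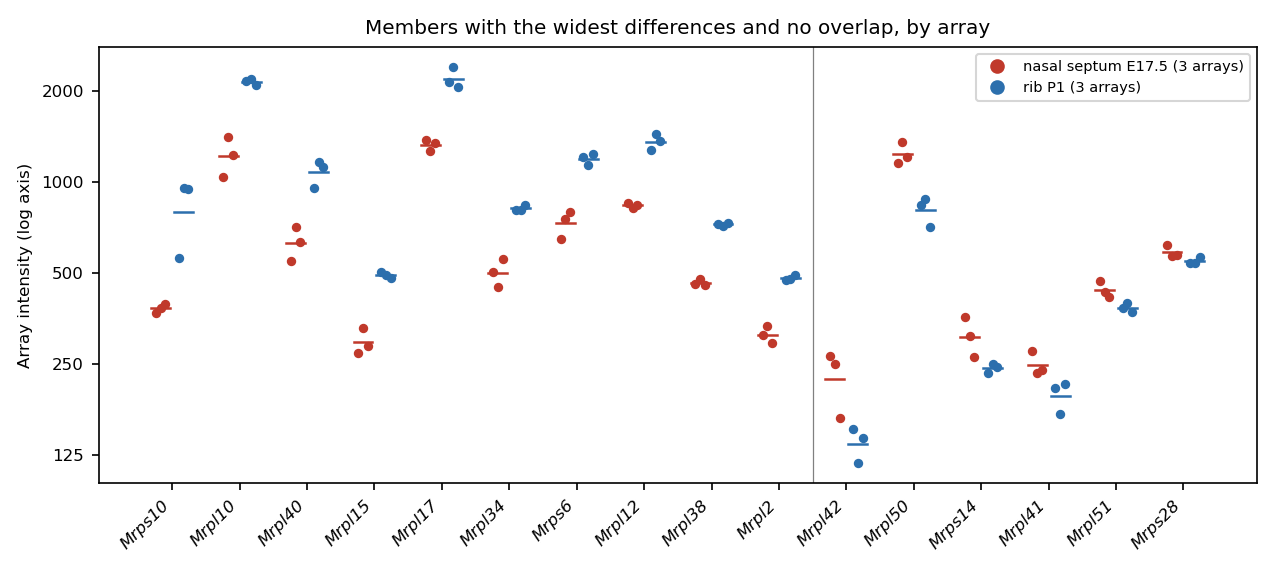
Array intensities (y axis, log scale) of the 10 genes with the widest difference towards rib (left of the line) and the 6 higher in nasal (right of it) among those whose groups did not overlap. Points are single arrays, bars are geometric means, and rib replicate 1 of Mrps10 is seen at 560.3 under the other rib values.

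Both subunits had medians below 0. Of 50 large-subunit genes, 2 were called higher in nasal and 20 higher in rib, with a median of -0.26. Of 26 small-subunit genes, 0 were called higher in nasal and 7 higher in rib, with a median of -0.20 (-0.12 without nasal replicate 2). Over all genes 13.8% were called higher in nasal and 14.7% in rib, and among other genes of like brightness 15.4% in nasal and 26.4% in rib. By origin, the 28 large-subunit genes with a bacterial counterpart had a median of -0.27 (0 called higher in nasal, 13 in rib) and the 22 mitochondria-specific ones -0.26 (2 in nasal, 7 in rib). The 17 small-subunit genes with a bacterial counterpart had a median of -0.16 (0 in nasal, 5 in rib) and the 9 mitochondria-specific ones -0.27 (0 in nasal, 2 in rib). The differences between these classes were not tested, since the genes are not replicates of a condition.

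Mrps18a, Mrps18b and Mrps18c are paralogues of 1 bacterial gene, and in mammals the product of Mrps18a sits in the large subunit. Mrps18a had 447, 438 and 494 on the nasal arrays and 637, 667 and 730.1 on the rib arrays (-0.56, SE 0.10). Mrps18b had 922, 897 and 885 on the nasal arrays and 1335, 1185 and 1329.8 on the rib arrays (-0.51, SE 0.09). Both were called, with the groups apart. Mrps18c had 482, 479 and 355 on the nasal arrays and 428, 495 and 436 on the rib arrays (-0.06, SE 0.14), so its groups overlapped.

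Genes with other special roles gave a mixed picture. Mrpl58, a peptidyl-tRNA hydrolase that frees stalled mitoribosomes, had 498, 458 and 504 on the nasal arrays and 674, 675 and 646 on the rib arrays and was called (-0.45, SE 0.09). Mrpl45, which ties the exit tunnel to the inner membrane, had 287, 259.6 and 286 on the nasal arrays and 383, 326 and 311 on the rib arrays (-0.29, SE 0.11). It was not called, although its groups did not overlap. Mrps30, a large-subunit protein despite its name, had 282, 310.5 and 256 on the nasal arrays and 319, 328 and 348 on the rib arrays (-0.23, SE 0.10). It was not called either, with the groups apart. Mrps12, of the decoding centre, had 212, 152 and 182 on the nasal arrays and 168, 184 and 175 on the rib arrays (0.04, SE 0.13), with full overlap.

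The genes nearest to 0 were Mrpl1, Mrps31 and Mrpl22. Mrpl1, of the stalk through which used tRNA leaves, had 387, 369.8 and 408 on the nasal arrays and 400.4, 404 and 348 on the rib arrays (0.02, SE 0.10). Its other probe set gave -0.10. Mrps31 had 371, 363.5 and 336 on the nasal arrays and 353, 373 and 360.3 on the rib arrays (-0.02, SE 0.09). Mrpl22, at the wall of the exit tunnel, had 159, 183 and 157 on the nasal arrays and 160.4, 151 and 199.5 on the rib arrays (-0.03, SE 0.13). All 47 genes that were not called lay between -0.41 and 0.34, and 17 of those below 0 had groups that did not overlap.

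Promoters of these genes were read from the RefSeq table of build GRCm38.p6, which spans 250 bases before to 50 bases after each start, for 67 of the 76 genes (73 windows). Genes of mitochondrial function are known to use sites for NRF1, for ETS factors such as GABPA, and for YY1. On either strand, the letters CCGGAAG, the core of an ETS site, occurred in 35.6% of the 73 windows and in 12.1% of the 19050 windows of all measured genes. AAGATGGC, the core of a YY1 site, occurred in 16.4% of them and in 3.25% of all windows, and GCGCATGC, taken for NRF1, in 10.96% and 3.76%. A match to at least 1 of the 3 was found in 52.1% of these windows and in 17.6% of all. The Sp1 letters GGGCGGGG (21.9% and 25.5%), the E-box CACGTG (9.59% and 8.32%), AAGGTCA of the estrogen-related receptors (5.48% and 3.88%) and CCAAT (39.7% and 37.6%) stood closer to all windows. GCGCATGC can overlap its own reverse. Median GC content was 58.7% in these windows and 57.7% in all, and the median ratio of observed to expected CG pairs was 0.82 and 0.62. Within the 67 genes, the median difference was -0.26 for the 26 with the ETS letters and -0.23 for the 41 without. It was -0.18 for the 8 with the NRF1 letters and -0.25 for the 59 without, and -0.17 for the 12 with the YY1 letters and -0.26 for the 55 without.

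The 250 bases before the start are shown for 3 genes of the rib side and 1 of the nasal side. NRF1 and ETS letters are in capitals, so that these matches can be seen in place. The genes shown do not stand for their sides. On the rib side, Mrps10, Mrpl40, Mrps6, Mrpl12 and Mrpl2 had no NRF1, ETS or YY1 match in their windows. Above 0, Mrpl27 and Mrpl51 held ETS matches before the start. Mrpl10 (chr11:97041332-97041581, plus strand) holds 1 NRF1 match 134 bases before the start. Mrpl17 (chr7:105811088-105811337, minus strand) holds 1 ETS match 237 bases and 1 NRF1 match 11 bases before it. Mrpl34 (chr8:71464676-71464925, plus strand) holds 1 ETS match 37 bases before the start. Mrpl42 (chr10:95501950-95502199, minus strand), higher in nasal, shows none of these letters in this stretch, and its YY1 match lies 27 bases after the start, outside it.
Mrpl10: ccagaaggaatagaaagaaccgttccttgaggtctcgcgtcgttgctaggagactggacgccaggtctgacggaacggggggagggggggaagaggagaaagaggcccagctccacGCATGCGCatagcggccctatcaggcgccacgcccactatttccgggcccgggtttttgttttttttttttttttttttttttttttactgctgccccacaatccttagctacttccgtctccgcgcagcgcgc
Mrpl17: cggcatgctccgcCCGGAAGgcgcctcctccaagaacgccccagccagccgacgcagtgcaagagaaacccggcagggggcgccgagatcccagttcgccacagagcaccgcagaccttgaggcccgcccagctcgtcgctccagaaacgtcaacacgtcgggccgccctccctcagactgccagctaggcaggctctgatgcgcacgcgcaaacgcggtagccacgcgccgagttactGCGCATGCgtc
Mrpl34: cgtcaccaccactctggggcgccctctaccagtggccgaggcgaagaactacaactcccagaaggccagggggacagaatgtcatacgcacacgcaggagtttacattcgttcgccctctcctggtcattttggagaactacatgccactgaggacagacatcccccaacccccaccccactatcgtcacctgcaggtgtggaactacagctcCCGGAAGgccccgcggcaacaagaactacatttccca
Mrpl42: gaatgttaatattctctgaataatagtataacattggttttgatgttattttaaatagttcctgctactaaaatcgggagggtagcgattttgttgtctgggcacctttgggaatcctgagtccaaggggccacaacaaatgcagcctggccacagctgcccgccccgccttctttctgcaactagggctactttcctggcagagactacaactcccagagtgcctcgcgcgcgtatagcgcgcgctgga

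These genes often lie back to back with another gene. Of the 67 with a window, 24 (35.8%) had a measured gene on the opposite strand whose start lay within 1000 bases before their own, against 9.06% of all genes with a window. Of the 24 neighbours, 2 were called higher in nasal and 7 higher in rib, and their median difference was -0.10. Over all genes 13.8% were called higher in nasal and 14.7% in rib, and shares at the neighbours' brightness were not computed. The 24 include Mrps11 and Mrpl46, which neighbour each other and belong to the 76 genes themselves. Mrpl40 lies 113 bases from Hira, a histone chaperone gene, which was also called higher in rib (-0.40, SE 0.10). Mrps7 lies 224 bases from Gga3, a gene of vesicle sorting, called higher in rib too (-0.61, SE 0.11). The spans of Mrps7 and Gga3 also overlap, as do those of Mrpl57 and Ska3. Pairs with unlike values existed as well. Mrpl57 (-0.28) is 76 bases from Ska3, a gene of chromosome segregation that was called higher in nasal (0.62, SE 0.10), and Mrps27 (0.10) is 108 bases from Ptcd2, called higher in rib (-0.65, SE 0.08). Mrps12 (0.04) is 147 bases from Sars2, which charges serine tRNA in mitochondria and was called higher in rib (-0.42, SE 0.11). Mrps11 and Mrpl46, with starts 42 bases apart, gave -0.14 and 0.03, and neither was called.

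Mitoribosome proteins with other symbols gave no common direction. Of 5 such genes, Ptcd3 was called higher in nasal (662 in nasal and 507 in rib, 0.38, SE 0.11) and Aurkaip1 higher in rib (483 in nasal and 637 in rib, -0.40, SE 0.09). Dap3, Chchd1 and Gadd45gip1 were not called.

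Genes that build the mitoribosome had 18 of 27 differences below 0. Of the 27 assembly and rRNA modification genes, 1 was called higher in nasal and 12 higher in rib, with a median of -0.25. Over all genes 13.8% were called higher in nasal and 14.7% in rib, and 38.2% of differences lay below 0. Called shares at like brightness were not computed for this list or the related lists that follow. Clpp, a matrix protease, had 669 in nasal and 1574 in rib (-1.23, SE 0.09). The GTPases Mtg1 and Noa1 had 142 and 465 in nasal, against 296 and 809 in rib (-1.06, SE 0.11 and -0.80, SE 0.09). Called higher in nasal was the helicase gene Ddx28, with 141 in nasal and 111 in rib (0.35, SE 0.10).

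Next come the genes that run translation in mitochondria. Of 16 translation factor genes, 0 were called higher in nasal and 6 higher in rib (median -0.23). Among them were Gfm2 and Mrrf, which recycle the ribosome after termination (-0.57, SE 0.13 and -0.57, SE 0.09), and Oxa1l, which inserts new chains into the inner membrane (-0.57, SE 0.09). Of 20 genes for tRNA charging, 0 were called higher in nasal and 9 higher in rib (median -0.26). The shares over all genes were 13.8% in nasal and 14.7% in rib. Those with the widest differences were Tars2, Rars2 and Ears2, which load threonine, arginine and glutamate, at 521, 314 and 253 in nasal and 855, 482 and 385 in rib.

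Among 9 genes for upkeep and transcription of mitochondrial DNA, 1 was called higher in nasal and 2 higher in rib (median -0.30). The shares over all genes were 13.8% in nasal and 14.7% in rib. Polrmt, the mitochondrial RNA polymerase, had 410.4 in nasal and 633 in rib (-0.63, SE 0.10), and Top1mt gave -0.61 (SE 0.12). Tfam, which packs mitochondrial DNA, had 930.5 in nasal and 649 in rib (0.52, SE 0.135). Of 10 regulators of mitochondrial biogenesis, 2 were called in each direction (median -0.01). The coactivator Ppargc1a had 416 in nasal and 249 in rib (0.74, SE 0.105). Gabpb1 (0.63, SE 0.09) was also called higher in nasal, while Gabpa, the DNA-binding subunit of the same factor (-0.40, SE 0.11), and the coactivator Pprc1 (-0.43, SE 0.10) were called higher in rib. Nrf1 (-0.03, SE 0.12) and Yy1 (-0.11, SE 0.12) were not called.

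Oxidative phosphorylation subunits and cytosolic ribosomal proteins are set beside these genes for their nearness in function. Over all genes 13.8% were called higher in nasal and 14.7% higher in rib. Of 76 oxidative phosphorylation subunit genes, 10 were called higher in nasal and 16 higher in rib, with a median of -0.01. Ndufs8 had 745 in nasal and 1438 in rib (-0.95, SE 0.09), and Ndufv3 1005 in nasal and 459 in rib (1.13, SE 0.19). Of 44 cytosolic ribosomal protein genes, 8 were called higher in nasal and 2 higher in rib, with a median of 0.11, equal to that of all genes. They were taken by symbol and include Rps23rg1 and Rps4l, and Rps4l (-0.81, SE 0.12) is 1 of the 2 called higher in rib. Whether each encodes a ribosomal protein was not checked. Some were dim, such as Rpl29 (127 in nasal and 171 in rib), and how well their probe sets measure them was not tested. Rps19 gave -0.95 (SE 0.18) and Rpl3 0.56 (SE 0.13). Set against genes of like brightness, the median of the mitochondrial ribosomal protein genes was -0.17. It was -0.36 for tRNA charging, -0.31 for mitochondrial DNA upkeep, -0.27 for translation factors and -0.20 for assembly and rRNA modification. Biogenesis regulators had -0.02, oxidative phosphorylation subunits -0.01, mitoribosome proteins with other symbols 0.04 and cytosolic ribosomal proteins 0.09. The differences between all these lists and the mitochondrial ribosomal protein genes were not tested.

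**Figure D5:**
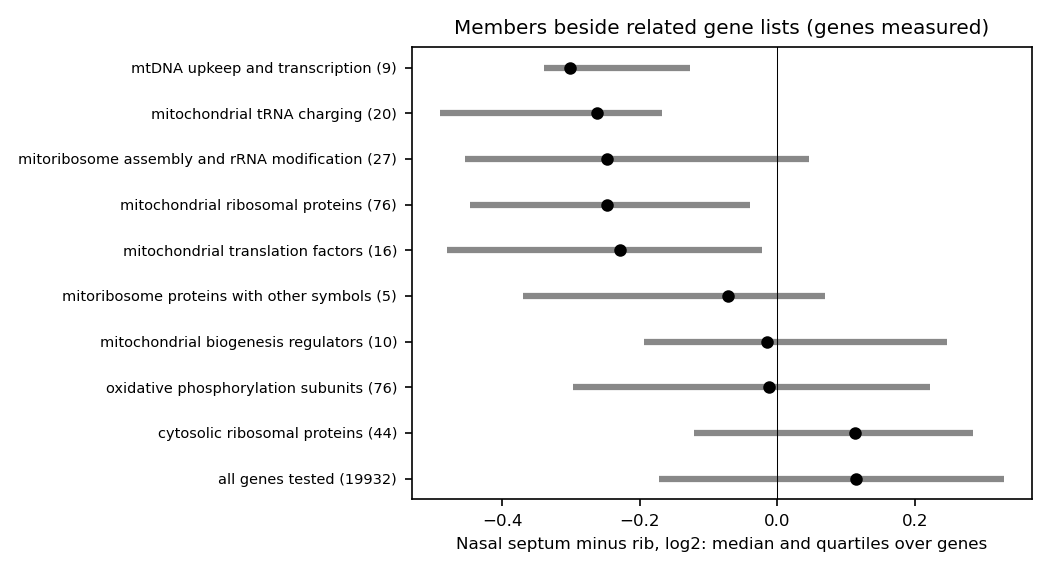
Median (point) and quartiles (bar) of the nasal minus rib log2 difference over the measured genes of each list, with the number of genes in brackets. The 76 mitochondrial ribosomal protein genes have a median of -0.25. Medians are -0.26 for tRNA charging, -0.30 for mitochondrial DNA upkeep, -0.25 for assembly and rRNA modification and -0.23 for translation factors. Mitoribosome proteins with other symbols have -0.07, biogenesis regulators and oxidative phosphorylation subunits -0.01, and cytosolic ribosomal proteins and all genes 0.11.

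Fewer genes were called with some samples left out. Leaving out rib replicate 1 or rib replicate 2 gave 17 members called higher in rib in place of 27. Over all 19932 genes, 2117 and 1827 were called higher in rib in these fits, in place of 2937. Of the members, 15 were called higher in rib in all 6 fits without 1 sample. The same count over all genes was not computed, so these 15 cannot be set against a background share. Those 15 include the 10 rib-side genes shown by array, Mrps18a, Mrps18b, Mrpl53 and Mrpl58. The other 12 lost the call in 2 to 5 of the 6 fits. The nasal count was 1 without nasal replicate 1, nasal replicate 2 or any 1 rib replicate. Over all genes the nasal count was 1639 to 2596 in these fits, in place of 2746.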

How the data were processed

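RNA from 3 nasal septum and 3 rib chondrocyte samples, extracted with Trizol and DNase-treated, was labelled and hybridised (per the labels' protocols). Linear array intensities for the 6 samples were deposited by the authors in 1 table. RMA is named without a version, per the submitters' processing notes. The trimmed mean (2% at each end) of each column is 500, as computed here, so arrays had been scaled but not made equal in distribution. The values are not log-transformed or centred. For the RMA steps applied and for the build of the genome, the sources used here give nothing, and detection calls were not used. Background left in an intensity lowers the differences of dim genes.

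Of 28451 probe sets, 24935 matched 1 symbol and 0 several through RefSeq accessions of GRCm38.p6. Log2 of the deposited intensities was taken without a pseudocount, and the fit used limma 3.58.1 in R 4.3.3 (lmFit, eBayes, no covariate) over 19932 genes with Benjamini-Hochberg adjustment. It was tested on simulated data. An exact permutation test of 3 against 3 cannot go below 0.1. The number of arrays limits the precision. Each limma p-value sets a difference against the spread between samples of a group, an estimate that draws on all genes. The members and lists were chosen with earlier results of these data known. Genes named are the 10 widest differences per direction without overlap, the 3 nearest 0, genes of set roles and up to 3 called genes per direction of each list. Mrpl46, Mrpl48, Mrps33, Mrpl27, the neighbours and uncalled genes of related lists were added after their values were seen. Alternatives were 3 normalizations, 2 filters on dim genes, averaged probe sets, a pseudocount of 32, trend and robust variance, a replicate block and leaving out each sample.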

Additional observations from a re-analysis of the deposited data

How the results depend on the processing

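The median difference of the 76 genes stayed below 0 under all alternatives run. It was -0.19 after quantile normalization, -0.31 after median centring, -0.17 after cyclic loess and -0.27 among genes above the median level, and ran from -0.27 to -0.23 without 1 sample. Relative to all genes it was -0.19, -0.18 and -0.20 after quantile normalization, cyclic loess and the median filter (-0.36 as deposited), and from -0.40 to -0.29 without 1 sample. Relative to genes of like brightness it ran from -0.20 to -0.14 without 1 sample. Large-subunit genes gave -0.20, -0.31, -0.17 and -0.30 after quantile normalization, median centring, cyclic loess and the median filter, and -0.29 to -0.24 without 1 sample. Small-subunit genes gave -0.26 after median centring, -0.14 after cyclic loess, and -0.22 to -0.12 without 1 sample. Members called higher in nasal numbered 6 after quantile normalization and after cyclic loess, 4 above the 25th percentile, 1 with the replicate block and 1 to 3 without 1 sample. Over all genes the same counts were 3253 and 3468 of 19932, 2861 of 14949, 1939 of 19932, and 1639 to 2596 of 19932. Members called higher in rib numbered 42 of 65 among genes above the median. Of all 9966 genes there, 3491 were called higher in rib and 58.6% in either direction. With the replicate block 18 members were called higher in rib, and without 1 sample 17 to 27. Over all 19932 genes these counts were 1964 and 1827 to 3168. Genes called over all genes numbered 3466 to 5764 without 1 sample, with 3466 without rib replicate 2. Members without overlap, in either direction, numbered 44 after quantile normalization, 45 after median centring and 42 after cyclic loess, against 50 as deposited. The share over all genes was computed only as deposited (45.7%), so the counts after normalization have no background share to be read against.

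Of the 76 genes, 11 turned sign between settings. Genes near 0 named by rule or role are given here. Mrpl1 gave -0.0417 after median centring, -0.0418 with averaged probe sets, and -0.0529 to 0.0555 without 1 sample. Mrps31 gave 0.0512 and 0.0696 after quantile normalization and cyclic loess, and -0.0512 to 0.0212 without 1 sample. Mrps12 gave -0.0937, -0.0176 and -0.0883 after quantile normalization, median centring and cyclic loess, and -0.0751 to 0.17 without 1 sample. Mrps18c gave 0.0543 and 0.0702 after quantile normalization and cyclic loess, and -0.13 to 0.0889 without 1 sample. Mrpl22 turned without 1 sample, at -0.11 to 0.0941. Over all settings Mrpl46 ran from -0.0271 to 0.17, Mrpl27 from -0.11 to 0.33 and Mrps27 from -0.0595 to 0.19. The cause was not tested. Samples share only a replicate number: deviations of same-numbered samples correlated at -0.02, 0.22 and -0.28 across genes for numbers 1, 2 and 3, so the block carries no known pairing. Without detection calls, signal over background of dim genes is unknown.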
